A study of Mus musculus with 2 samples.

Results

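Hypoxia-induced genes are genes whose RNA rises when oxygen falls. 10 of them, Car9, Ankrd37, Bnip3, Ndrg1, Egln3, Hilpda, Adm, Vegfa, P4ha1 and Slc2a1, were followed here across the cell classes of CT26 tumours. The members were a list of gene symbols chosen with earlier results of these data known, and all 10 were found among 32285 gene rows. The wider gene lists used below were chosen in the same way. Counts of members or listed genes beside the share of all genes are therefore descriptions and not a test. CT26 cells derive from a colon carcinoma of a BALB/c mouse and form tumours in that strain. The assay was droplet single-cell RNA sequencing, and the labels name lymphocytes that infiltrate the tumour as the source. Both libraries nevertheless held CT26-like tumour cells, macrophages and other non-lymphoid cells, and how cells were selected is not given in the sources used here. The labels give 2 groups in strain BALB/c, both from tumour tissue, with 1 library each: the genotype of one is mock, that of the other PTIR1-expressing. Age, time after implantation, the number of animals pooled and the promoter that drives PTIR1 are not given in the sources used here, and no gene row is named PTIR1, so the labels could not be checked against it. With 1 library a group there is no replicate and no test: the 95% intervals reflect counting error alone (exact for levels, shares and ratios, from the summed Poisson variances of log counts for differences of log2 ratios), and they are too narrow where many unique molecular identifiers (UMIs, each standing for 1 captured RNA molecule) come from few cells.

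In low oxygen the prolyl hydroxylases that mark the HIF alpha subunits for destruction slow down. HIF then pairs with ARNT, binds short stretches of DNA with a fixed core and switches on genes for glucose uptake, acid handling, vessel growth, matrix and mitochondrial turnover. In tumours these genes are known as markers of poorly perfused areas, and several of them also respond to other signals in macrophages and neutrophils.

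Filters on detected genes (at least 200) and mitochondrial UMIs (at most 10%) left 9328 mock and 7567 PTIR1 cells. Marker genes gave 9615 of these 16895 cells a class, and 7280 stayed without one. Tumour cells numbered 319 and 256 in the mock and PTIR1 library, macrophages 3080 and 1863, neutrophils 154 and 228, conventional dendritic cells 77 and 85, and plasmacytoid dendritic cells 102 and 103. Mast cells or basophils numbered 168 and 57, B cells 427 and 786, NK cells 557 and 663, and T cells 288 and 117. The class of tumour cells carried Lgals7, Tm4sf1 and Hmga2, while the epithelial markers Cldn4 and Cldn7 were at 0 in both libraries and Krt7 and Krt19 in the mock library. Fibroblasts, with 7 and 278 cells, were not compared. The libraries shared 30 barcodes, 22 of them among kept cells. Median depth per cell was 50193 and 34437 UMIs in tumour cells and 11543 and 11918 in macrophages, and in the smaller classes it lay below that of the tumour cells.

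The letters around the start sites of the members are shown first, because ACGTG and GCGTG are the core letters to which HIF binds. RefSeq windows of GRCm38.p6, from 250 bases before to 50 after a start, matched 9 of the 10 members with 11 windows, and Ndrg1 was not among them. Either motif, searched on both strands so that CACGTG counts once on each, lay in 10 of the 11 windows, and in 43.8% of all 32851 windows. ACGTG alone lay in 8 of 11 windows and in 19.6% of all, GCGTG in 8 of 11 and in 32.4%. Below, 30 bases on the gene's strand are given for each of 8 members, with motif letters in capitals, at chr4:43506996-43507025 (plus strand), chr8:45999839-45999868 (minus), chr7:138909596-138909625 (minus), chr12:54204086-54204115 (minus), chr6:29272571-29272600 (plus), chr7:110627591-110627620 (plus), chr17:46025357-46025386 (minus) and chr4:119108697-119108726 (plus), in that order. A longer stretch of 150 bases before the gene is given for P4ha1, at chr10:59323146-59323295 (plus), which holds 2 matches. A match is a string of letters and not a measured site.
Car9: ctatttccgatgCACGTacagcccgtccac
Ankrd37: cagtgtttgggtACGTGaggccgcagcggg
Bnip3: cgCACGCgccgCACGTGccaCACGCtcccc
Egln3: tgtgcatctcagACGTGagatccaggtttt
Hilpda: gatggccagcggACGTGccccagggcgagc
Adm: ggcaaatctgacCACGCccaccgtccgccc
Vegfa: ggagtGCGTGccCACGTcagagagcaacat
Slc2a1: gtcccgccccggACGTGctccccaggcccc
P4ha1: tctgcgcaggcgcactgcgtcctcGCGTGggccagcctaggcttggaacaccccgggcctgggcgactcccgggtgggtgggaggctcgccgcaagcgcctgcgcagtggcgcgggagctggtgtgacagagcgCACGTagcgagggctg
The match nearest to the start, ACGTG where the gene had one, lay 18 bases before it in Car9, 6 in Ankrd37, 36 in Slc2a1, 43 in Hilpda, 54 in Adm, 211 in Vegfa and 229 in Egln3. For Vegfa and Hilpda this was the second of 2 RefSeq starts, which lies inside the annotated gene; of the windows at the outer starts, that of Vegfa held neither motif and that of Hilpda 1 GCGTG after the start. The RefSeq starts of Ankrd37, Car9, Slc2a1 and Bnip3 also lie inside the annotated genes. The 30 bases given for Ankrd37, Car9, Hilpda and Vegfa lie inside the genes, and those given for Slc2a1 do so in part.

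In CT26 tumour cells the members were lower in the PTIR1 library. Summed over the 10 genes, the level was 676 UMIs per 1000000 UMIs of the class (CPM) in mock tumour cells and 360 in PTIR1 tumour cells, a ratio of 0.532 (interval 0.514 to 0.551). 8 members had at least 50 UMIs over both libraries and so counted as measured. 7 of these 8 were at least 1.5-fold lower, the fold used throughout, where 7.10% of the 10678 measured genes of the class were. None was at least 1.5-fold higher, where 5.65% of all genes were. All 8 ratios lay below 1 with intervals that excluded it. Their median log2 ratio was -0.92, beside -0.06 over all measured genes. The share of all genes with a ratio below 1 was not computed.

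Car9, a cell-surface carbonic anhydrase and a standard hypoxia marker, differed most among them. Mock tumour cells held 347 Car9 UMIs (18.1 CPM) and PTIR1 tumour cells 14 (1.16 CPM), a ratio of 0.0642 (0.0347 to 0.109). Those UMIs came from 42 of 319 and from 8 of 256 cells. In B cells, which are not known for Car9, it was seen in 2 of 427 and 1 of 786 cells at median depths of 4274 and 4503.5 UMIs.

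Ankrd37, a small ankyrin-repeat protein, went from 709 UMIs (37.0 CPM) to 113 (9.38 CPM), a ratio of 0.254 (0.206 to 0.310). Bnip3, a mitochondrial receptor for mitophagy, went from 1690 UMIs (88.1 CPM) to 412 (34.2 CPM), a ratio of 0.388 (0.348 to 0.432). Ndrg1, a stress-response protein, went from 3800 UMIs (198 CPM) to 1245 (103 CPM), a ratio of 0.521 (0.489 to 0.556). The main intervals of these 3 genes and of Car9, which cover counting error alone, did not overlap each other. Over the alternative settings the ratio ran from 0.242 to 0.548 for Ankrd37, 0.362 to 0.415 for Bnip3 and 0.351 to 0.545 for Ndrg1. The ranges of these 3 genes overlapped, and that of Car9, 0.0347 to 0.0671, lay below them.

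P4ha1, a collagen prolyl hydroxylase, stood at 122 CPM in mock and 65.6 CPM in PTIR1 tumour cells, a ratio of 0.536 (0.494 to 0.581). The glucose transporter Slc2a1 stood at 53.8 and 31.9 CPM, a ratio of 0.594 (0.527 to 0.669). Hilpda, which blocks lipolysis at lipid droplets, went from 1363 UMIs (71.1 CPM) to 529 (43.9 CPM), a ratio of 0.618 (0.558 to 0.683). The vessel growth factor Vegfa, at 87.5 and 69.5 CPM, was the measured member that did not reach 1.5-fold, with a ratio of 0.794 (0.730 to 0.864). Hilpda and Vegfa also missed the fold where each cell weighed the same, with ratios of 0.723 and 0.915. Egln3, the oxygen-sensing prolyl hydroxylase that is itself a HIF target, gave only 4 and 9 UMIs in tumour cells. Adm, the vasodilator peptide adrenomedullin, gave 0 in both libraries, so neither of these 2 entered a count for tumour cells.

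**Figure D1:**
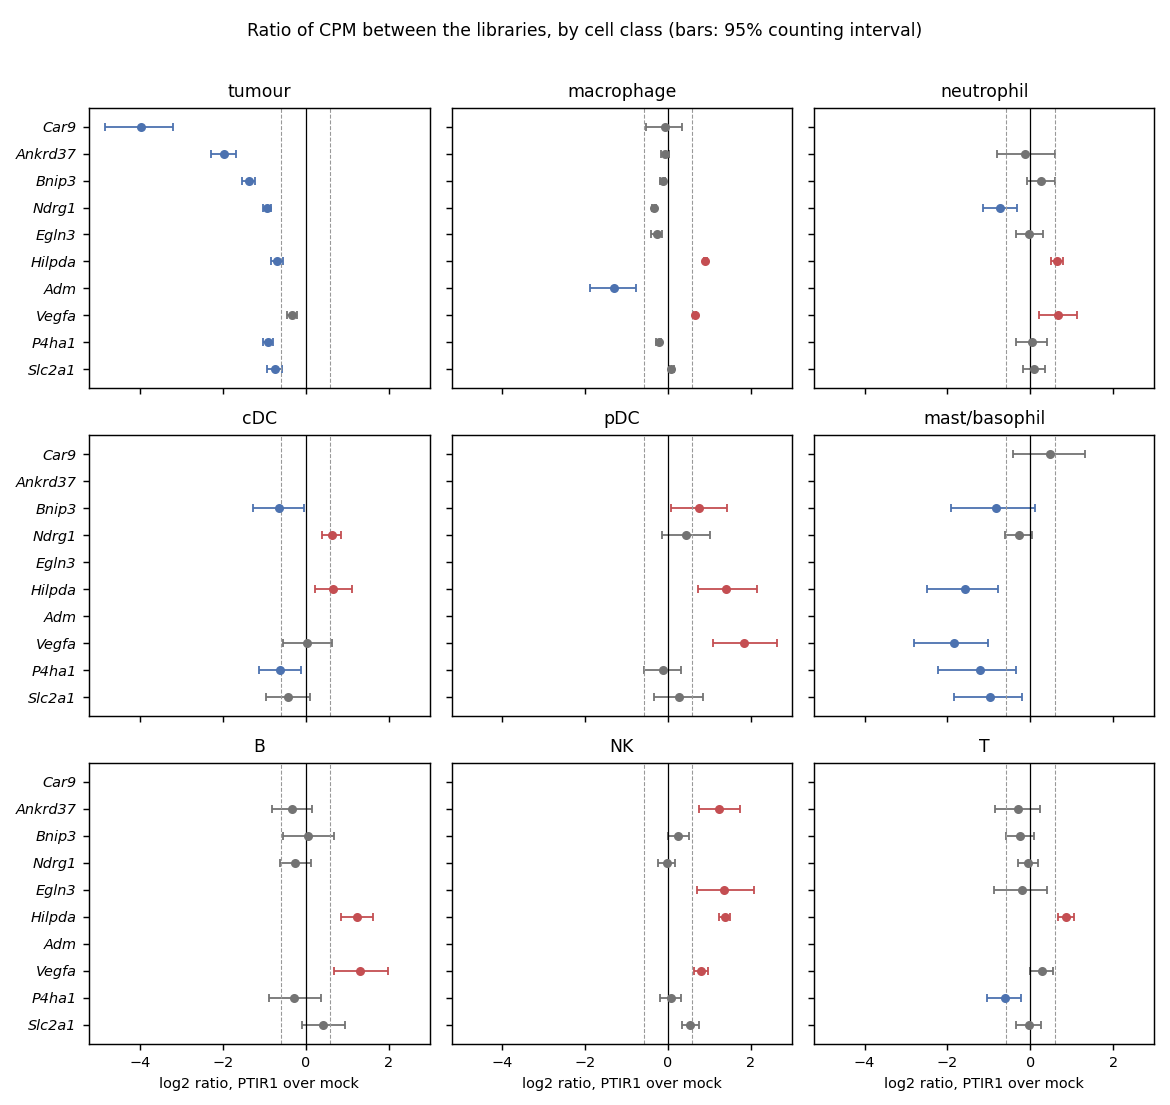
Log2 ratio of CPM, PTIR1 over mock library (x axis), for each measured member (y axis) in 9 cell classes, with 95% counting intervals as bars. Dashed lines mark 1.5-fold, red points lie at or above it and blue points at or below it; in tumour cells 7 of 8 members are blue, and Hilpda is red in 7 immune classes.

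More mock tumour cells were shallow, with 78 of 319 under 3000 UMIs against 33 of 256. Among tumour cells of at least 20000 UMIs the ratio was 0.0652 for Car9, 0.248 for Ankrd37, 0.383 for Bnip3 and 0.601 for Hilpda. If all C1q, Mrc1 and Ms4a7 UMIs of tumour cells came from macrophage RNA, that RNA could bring 3.87 of the 71.1 CPM of Hilpda in mock and 5.28 of the 43.9 CPM in PTIR1 tumour cells. The 14 immediate early and stress genes, which also rise when tissue is dissociated, went the other way in tumour cells, with 11 of 14 ratios above 1 and a summed ratio of 2.06. Of these, 10 were at least 1.5-fold higher and 1 lower, beside 5.65% and 7.10% of all measured genes. The part of these 14 genes in the members' difference was not tested in tumour cells.

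Few tumour cells held many member UMIs, and fewer did so in the PTIR1 library. With every tumour cell thinned to 20000 UMIs and shallower cells left out (123 mock, 61 PTIR1), the median cell of the mock library held 8 UMIs of the 10 genes and that of the PTIR1 library 6. The 95th percentile was 77 in mock and 17.6 in PTIR1 tumour cells, and the highest cell held 154 and 48. At least 20 UMIs were held by 43 of 196 mock cells (21.9%) and by 9 of 195 PTIR1 cells (4.62%). Between the libraries the upper end of the distribution therefore differed more than its middle.

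The 20 mock tumour cells with the most member UMIs held 46.6% of all member UMIs. They held 90.1% of those of Car9, 65.3% of Ankrd37, 51.7% of Bnip3 and 60.8% of Ndrg1, but 35.5% of those of Vegfa and 33.1% of P4ha1. The 20 such PTIR1 cells held 29.5% of all member UMIs. Across mock tumour cells the members varied together, with a median Pearson r of 0.51 over 28 pairs of members (range 0.29 to 0.71). Across PTIR1 tumour cells the median was 0.13 over 15 pairs. These leave out Car9 and Ankrd37, so the medians of the libraries cover unlike sets of pairs. PTIR1 tumour cells also held fewer member UMIs at this depth, with a mean of 7.69 beside 16.6 in mock cells. The part of these lower counts in the correlations was not tested. These correlations are descriptions over cells of 1 library thinned to the same depth, and cells are not replicates.

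**Figure D2:**
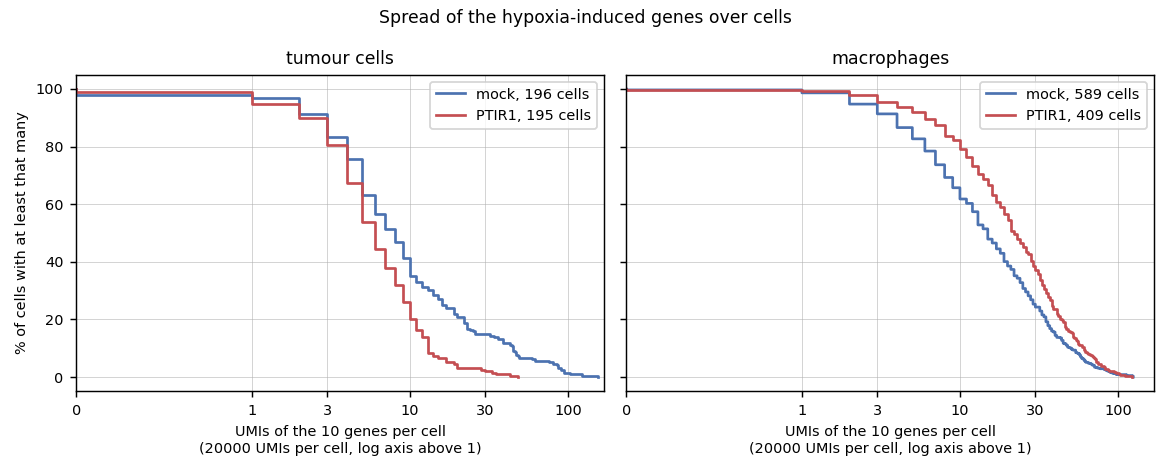
Share of cells (y axis, percent) holding at least a given number of UMIs of the 10 genes (x axis, log above 1), with each cell thinned to 20000 UMIs, for tumour cells and macrophages of the mock and PTIR1 library. In tumour cells the mock curve reaches 154 UMIs and the PTIR1 curve 48; in macrophages the PTIR1 curve lies to the right, with medians of 22 and 15.

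In macrophages the members did not move as 1 group: Hilpda and Vegfa were higher in the PTIR1 library, Adm was lower, and the other members lay within 1.5-fold over the whole class. Hilpda went from 11371 UMIs (295 CPM) to 13867 (549 CPM), a ratio of 1.86 (1.81 to 1.91). Vegfa went from 8698 UMIs (226 CPM) to 8888 (352 CPM), a ratio of 1.56 (1.51 to 1.60). These 2 of 10 measured members were at least 1.5-fold higher, where 5.24% of all 11698 measured genes were.

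Adm went from 140 UMIs (3.64 CPM) to 37 (1.47 CPM), a ratio of 0.403 (0.273 to 0.582). Those UMIs came from 50 of 3080 mock and 18 of 1863 PTIR1 macrophages, and 5 cells held 37.9% and 54.1% of them. Adm was the 1 member at least 1.5-fold lower in macrophages, where 3.13% of all measured genes were. Ndrg1 stood at 263 and 207 CPM, with a ratio of 0.790 (0.764 to 0.817). Egln3 had a ratio of 0.826, P4ha1 of 0.857 and Bnip3 of 0.916, each with an interval below 1. Slc2a1, at 192 and 203 CPM, had a ratio of 1.06 (1.02 to 1.10). The intervals of Car9, with 3.07 and 2.89 CPM, and of Ankrd37, with 66.1 and 63.0 CPM, included 1. Over the 10 members the median log2 ratio was -0.11 in macrophages, beside -0.02 over all genes, while the summed level had a ratio of 1.20 (1.19 to 1.22). Hilpda gave 11371 of the 54314 member UMIs of mock macrophages and 13867 of the 42885 of PTIR1 macrophages.

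Macrophages at or above 5 UMIs of the arginase gene Arg1 per 10000 made up 40.6% of mock and 57.1% of PTIR1 macrophages. In both libraries Hilpda was higher in these cells, at 494 and 728 CPM, than in the others, at 136 and 274 CPM. Within the Arg1-high cells the Hilpda ratio was 1.47 (1.43 to 1.52), and within the others 2.01 (1.91 to 2.12). For Vegfa the ratios were 1.32 (1.27 to 1.37) and 1.65 (1.56 to 1.73). Both genes were therefore higher in the PTIR1 library on either side of this division, but short of 1.5-fold among Arg1-high cells. Egln3 was past the fold downwards within Arg1-high cells, at 64.2 and 41.2 CPM with a ratio of 0.642 (0.581 to 0.709), and stood at 0.994 in the others. Slc2a1 lay on the other side of 1 within Arg1-high cells, at 0.955 (0.913 to 0.999), from the 1.06 of the whole class.

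Immediate early genes were higher in macrophages too, with 14 of 14 ratios above 1. Of these, 7 were at least 1.5-fold higher, where 5.24% of all measured genes were. The summed ratio of this RNA was 1.52. Macrophages at or above the median of the class in this RNA made up 36.9% of mock and 71.7% of PTIR1 macrophages. The Hilpda ratio was 1.46 within these cells and 1.60 within those below the median. For Vegfa it was 1.18 (1.14 to 1.23) and 1.25 (1.17 to 1.33), so that Vegfa did not reach 1.5-fold on either side of the median. Ndrg1 was past the fold downwards in cells at or above the median, with a ratio of 0.641 (0.614 to 0.668), and stood at 0.864 below it. Egln3 had a ratio of 0.682 at or above the median and was past the fold below it, at 0.641 (0.529 to 0.772). Slc2a1 had a ratio of 0.876 (0.838 to 0.917) at or above the median and 1.05 below it. Vegfa also stood just short of the fold with a stricter gate on the class, at 1.47, and with each cell weighed the same, at 1.49.

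RNA from tumour cells could bring 0.894 and 0.784 CPM of Hilpda to macrophages of the mock and PTIR1 library, if all their tumour marker UMIs came from it. With each macrophage thinned to 1000 UMIs, Hilpda was seen in 20.1% (534 of 2659) and 29.8% (526 of 1765) of cells, beside 50.1% and 66.2% before thinning. At the same depth it was seen in 10.8% (33 of 306) and 4.72% (12 of 254) of tumour cells, beside 64.3% and 67.2% before. B cells gave 3.84% (16 of 417) and 7.75% (59 of 761) at that depth, and no class compared here is known to lack Hilpda.

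NK cells had the most members past the fold upwards. Of 8 measured members 4 were at least 1.5-fold higher, where 4.36% of all 9675 measured genes were, and the median log2 ratio was 0.67 beside -0.05 over all genes. Hilpda went from 570 UMIs (98.9 CPM) to 2072 (255 CPM), a ratio of 2.57 (2.35 to 2.83). Vegfa went from 403 UMIs (69.9 CPM) to 988 (121 CPM), a ratio of 1.74 (1.54 to 1.95).

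Egln3 in NK cells went from 24 UMIs (4.17 CPM) to 87 (10.7 CPM), a ratio of 2.57 (1.62 to 4.22), and Ankrd37 from 47 UMIs (8.16 CPM) to 156 (19.2 CPM), a ratio of 2.35 (1.69 to 3.33). Slc2a1 stood at 50.3 and 73.1 CPM, a ratio of 1.45 (1.26 to 1.68). Bnip3, P4ha1 and Ndrg1 had ratios of 1.19, 1.05 and 0.977, with intervals that included 1. With each NK cell weighed the same, the ratio of Ankrd37 was 1.0, while that of Hilpda was 2.38 and that of Egln3 2.15. Macrophage RNA could bring 8.53 of the 98.9 CPM of Hilpda in mock and 29.1 of the 255 CPM in PTIR1 NK cells, and the ratio less that RNA was 2.50.

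B cells and T cells shared the higher Hilpda. In B cells it went from 69 UMIs (35.5 CPM) to 348 (83.6 CPM), a ratio of 2.35 (1.81 to 3.09), and Vegfa from 25 UMIs (12.9 CPM) to 133 (32.0 CPM), a ratio of 2.48 (1.61 to 3.97). These were the 2 of 7 measured members at least 1.5-fold higher in B cells, where 5.61% of all measured genes were, and none was lower, where 5.31% were. Macrophage RNA could bring 11.5 of the 35.5 and 25.5 of the 83.6 CPM of Hilpda. Less that RNA the Hilpda ratio was 2.42. Of the Vegfa UMIs it could bring 17.1 of 25 in mock and 67.9 of 133 in PTIR1 B cells, and no ratio is given for the rest. With each B cell thinned to 1000 UMIs the Vegfa ratio was 1.37.

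In T cells Hilpda went from 598 UMIs (194 CPM) to 405 (352 CPM), a ratio of 1.82 (1.60 to 2.06). It was the 1 of 8 measured members past the fold upwards, where 4.79% of all measured genes were, and P4ha1, at 85.5 and 55.6 CPM with a ratio of 0.650 (0.487 to 0.857), the 1 past it downwards, where 8.87% were. Vegfa in T cells stood at 109 and 131 CPM, a ratio of 1.20 (0.988 to 1.46), but 5 cells held 44.9% of its mock UMIs and 67.5% of its PTIR1 UMIs. Its ratio was 0.463 with a stricter gate and 2.51 with each cell thinned to 1000 UMIs. With the stricter gate the Hilpda ratio in T cells was 1.47. P4ha1 missed the fold with a looser gate, at 0.722, without the cells of the highest doublet scores, at 0.771, with thinning, at 0.836, with each cell weighed the same, at 0.832, and when centred on the median of all genes, at 0.668. The CD8 chains Cd8a and Cd8b1 stood at 507 and 199 CPM and at 387 and 155 CPM in this class, and their part in the members' ratios was not tested.

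Neutrophils had the highest Hilpda of all classes in both libraries, at 1192 CPM (581 UMIs) and 1861 CPM (1435 UMIs), a ratio of 1.56 (1.42 to 1.72). Vegfa stood at 121 and 191 CPM, a ratio of 1.58 (1.16 to 2.17). These were 2 of 8 measured members, where 10.1% of all measured genes were at least 1.5-fold higher. Egln3, Slc2a1, P4ha1 and Ankrd37 had ratios of 0.979, 1.06, 1.02 and 0.918, and Bnip3 of 1.20 (0.95 to 1.52). Ndrg1, at 217 and 131 CPM, had a ratio of 0.602 (0.454 to 0.799), where 9.87% of all genes were at least 1.5-fold lower. In mock neutrophils 5 cells held 60.4% of the Ndrg1 UMIs, and without the deepest 5% of cells the ratio was 1.28.

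In conventional dendritic cells Ndrg1 went from 236 UMIs (191 CPM) to 398 (295 CPM), a ratio of 1.54 (1.31 to 1.82), and Hilpda from 69 (55.9 CPM) to 120 (88.9 CPM), a ratio of 1.59 (1.17 to 2.17). 2 of 6 measured members were thus at least 1.5-fold higher, where 5.84% of all genes were. Bnip3 and P4ha1 were past the fold the other way, at 0.637 (0.412 to 0.976) and 0.652 (0.456 to 0.927), where 7.48% of all genes were. With a stricter gate these ratios were 0.749 and 0.672, and with a looser gate 0.701 and 0.793, short of the fold. Bnip3 also missed it without the deepest 5% of cells, at 0.724, and with up to 20% mitochondrial UMIs, at 0.692. P4ha1 also missed it without the cells of the highest doublet scores, at 0.675, and when centred on the median of all genes, at 0.674. Of the Hilpda UMIs, 5 cells held 68.1% in mock and 66.7% in PTIR1 cells, and with each cell thinned to 1000 UMIs the ratio was 0.544. With each cell weighed the same it was 1.30, and that of Ndrg1 1.32. Macrophage RNA could bring 19.4 of the 55.9 CPM of Hilpda in mock and 31.1 of the 88.9 CPM in PTIR1 cells. Markers within the class moved too: Cd209a stood at 486 and 236 CPM and Clec10a at 195 and 95.6, whereas Ccr7, the receptor of migrating mature dendritic cells, stood at 753 and 1420.2 and Ccl22 at 961 and 1575. Their part in the members' ratios was not tested.

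Plasmacytoid dendritic cells held few member UMIs. Hilpda went from 24 UMIs (20.7 CPM) to 64 (54.9 CPM), a ratio of 2.66 (1.64 to 4.44), Vegfa from 20 (17.2 CPM) to 71 (60.9 CPM), a ratio of 3.54 (2.13 to 6.14), and Bnip3 from 31 (26.7 CPM) to 52 (44.6 CPM), a ratio of 1.67 (1.05 to 2.70). These 3 of 6 measured members compare with 5.79% of all genes at least 1.5-fold higher, and none was lower, where 4.66% of all genes were. Summed macrophage markers went from 1344 to 4494 CPM in this class, and macrophage RNA could bring 15.5 of the 20.7 and 42.9 of the 54.9 CPM of Hilpda. Without the cells of the highest doublet scores the ratios were 1.57 for Hilpda, 1.42 for Vegfa and 1.31 for Bnip3. At 1000 UMIs per cell 2 of 100 mock cells and 2 of 102 PTIR1 cells showed Hilpda, beside 18.6% and 27.2% before thinning.

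Mast cells or basophils differed from the other immune classes, in that both Hilpda and Vegfa were lower in the PTIR1 library. Ratios lay below 1 for 6 of 7 measured members, beside 7 of 10 in macrophages and 6 of 8 in T cells. The share of all genes with a ratio below 1 was not computed for any of these classes. In mast cells or basophils the median log2 ratio of the members was -0.98, and that of all measured genes -0.09. Hilpda went from 120 UMIs (99.1 CPM) to 14 (33.0 CPM), a ratio of 0.333 (0.177 to 0.581), and Vegfa from 134 (111 CPM) to 13 (30.7 CPM), a ratio of 0.277 (0.144 to 0.490). P4ha1 and Slc2a1 had ratios of 0.428 (0.212 to 0.790) and 0.508 (0.278 to 0.870), and Bnip3 one of 0.561 (0.265 to 1.08). These were 5 of 7 measured members, in a class where 15.8% of all measured genes were at least 1.5-fold lower. None was higher, where 3.80% were. Bnip3 missed the fold with a stricter gate, at 0.733, and without the deepest 5% of cells, at 0.684, as did Slc2a1 without those cells, at 0.686, and P4ha1 with thinning to 1000 UMIs, at 0.708. Ndrg1 stood at 306 and 252 CPM, a ratio of 0.823 (0.658 to 1.02). Summed macrophage markers were also lower in this class, at 3798 and 1243 CPM, and less macrophage RNA the Vegfa ratio was 0.208. The basophil protease Mcpt8 stood at 1361 and 302 CPM, while the mast cell genes Cpa3, at 11749.6 and 16254 CPM, and Cma1 were higher in the PTIR1 library. The part of this change of markers in the members' ratios was not tested.

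Mast cells or basophils also had the highest Car9 of all 9 classes. The level was 30.6 CPM (37 UMIs in 22 of 168 cells) in the mock and 42.4 CPM (18 UMIs in 9 of 57 cells) in that of PTIR1, a ratio of 1.39 (0.744 to 2.50). Tumour cells came next in the mock library, at 18.1 CPM with an interval of 16.2 to 20.1 that did not overlap the 21.5 to 42.1 of mast cells or basophils. In the PTIR1 library tumour cells, at 1.16 CPM, were 7th of 9 and overlapped their neighbours in the order. RNA from tumour cells could bring 0.940 CPM of Car9 to mock mast cells or basophils and 0.0462 CPM to those of the PTIR1 library.

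**Figure D3:**
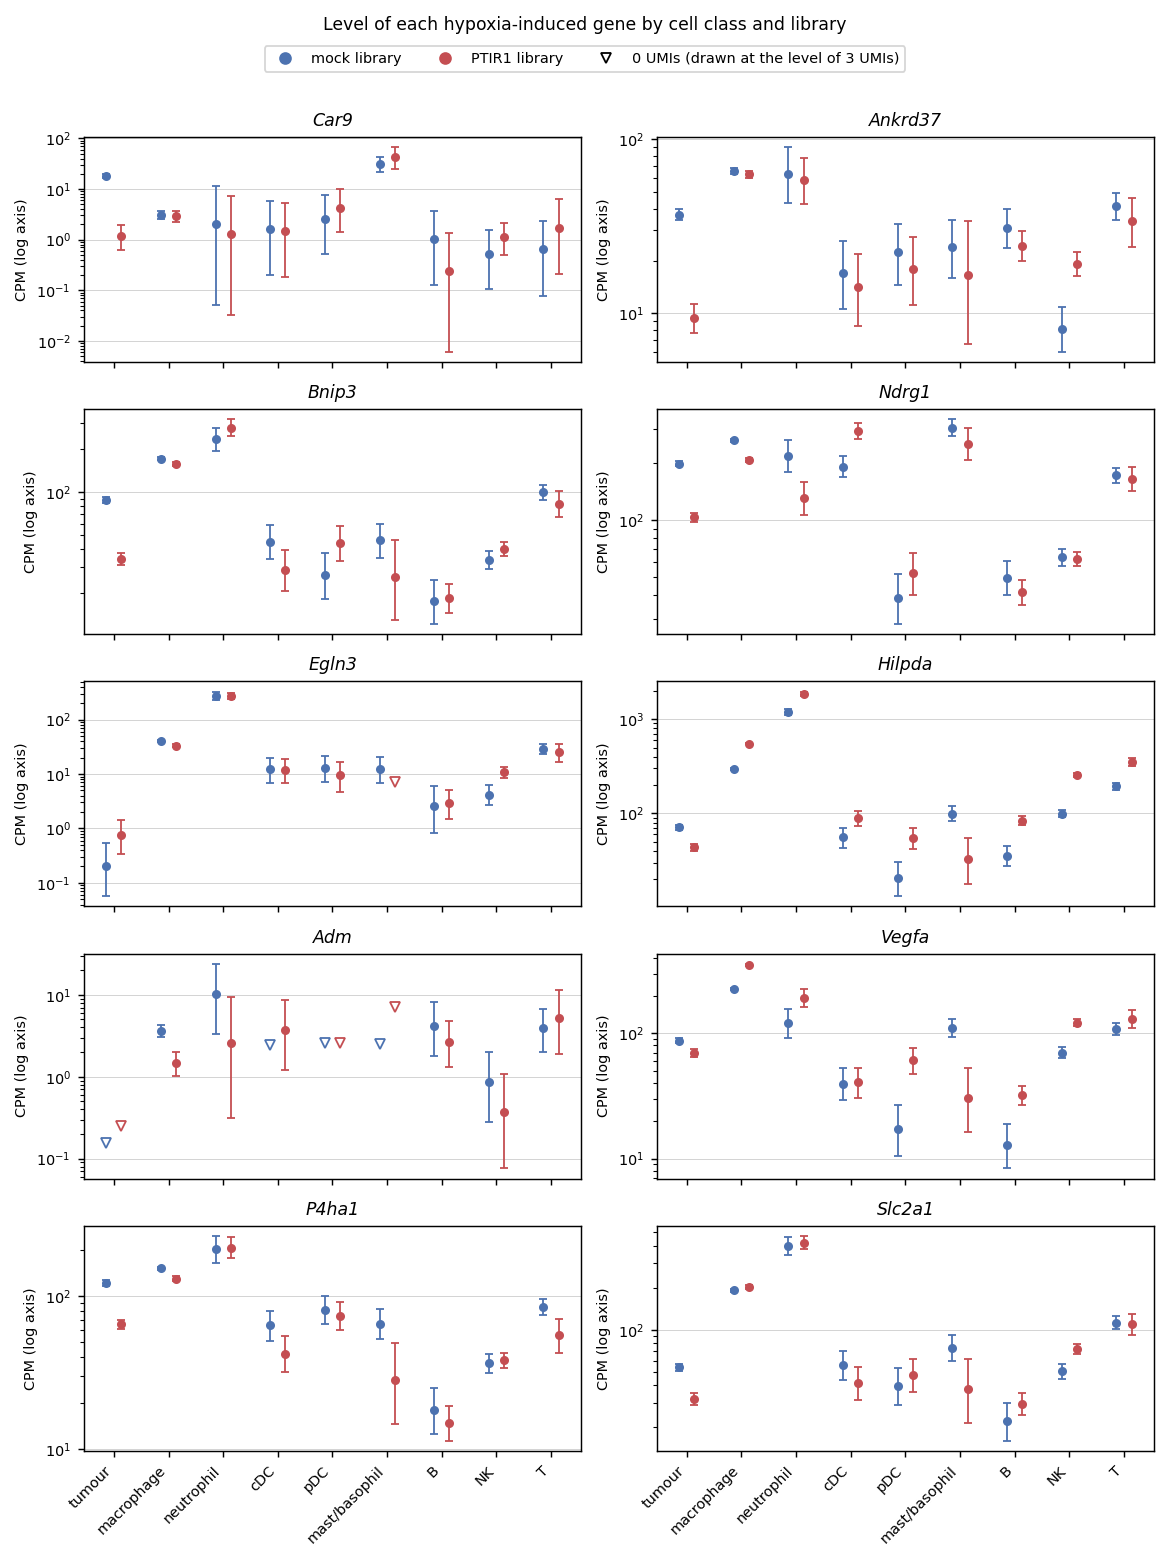
CPM of each member (y axis, log scale) in 9 cell classes (x axis) of the mock (blue) and PTIR1 (red) library, with exact 95% Poisson intervals as bars; open triangles mark classes with 0 UMIs, drawn at the level of 3 UMIs. Neutrophils stand highest for Hilpda, Egln3, Bnip3, P4ha1 and Slc2a1, and mast cells or basophils for Car9. From the mock to the PTIR1 library tumour cells drop in the order for most members, but not for Vegfa or Egln3.

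The order of the classes was otherwise similar for several members. In both libraries neutrophils came first and macrophages second for Hilpda, Bnip3, P4ha1, Slc2a1 and Egln3, with T cells next for Hilpda, Bnip3, Slc2a1 and Egln3. For Egln3 the level was 277 and 271 CPM in neutrophils and 40.1 and 33.1 CPM in macrophages, and in neither library did these intervals overlap. Vegfa was highest in macrophages, ahead of neutrophils without overlap. Ankrd37 was highest in macrophages, at 66.1 and 63.0 CPM, and neutrophils, at 63.6 and 58.4 CPM, did not differ from them beyond their intervals. Ndrg1 was highest in mast cells or basophils of the mock library, at 306 CPM, and in conventional dendritic cells of the PTIR1 library, at 295 CPM, whose interval overlapped that of mast cells or basophils.

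Tumour cells moved down this order for most members. For Ankrd37 they were 4th of 9 in the mock library and last in the PTIR1 library. For Bnip3 they went from 4th to 6th, for Hilpda from 6th to 8th, for Slc2a1 from 6th to 8th and for Ndrg1 from 4th to 6th, while for Vegfa they were 5th in both. For Egln3, with 4 and 9 UMIs, they went from 9th to 8th. Bnip3 in PTIR1 tumour cells, at 34.2 CPM, overlapped NK cells, at 40.3 CPM, and conventional dendritic cells, at 28.9 CPM. For Ankrd37, Hilpda, Ndrg1 and Slc2a1 the interval of tumour cells overlapped that of a neighbour in the order in both libraries. Adm was at or under 12 UMIs in every class but macrophages, and its order in the other classes was not resolved at this depth.

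Tumour and immune cells moved in opposite directions past 1.5-fold in 10 of 55 pairs of a member and an immune class. 7 of these pairs were Hilpda, lower in tumour cells and higher in every immune class but mast cells or basophils. The other 3 were Ankrd37 in NK cells, Bnip3 in plasmacytoid dendritic cells and Ndrg1 in conventional dendritic cells. Over the alternative settings these immune ratios ran from 1.0 to 2.53, 1.26 to 1.95 and 1.32 to 2.44. Each of them thus fell short of the fold in some setting. With intervals on opposite sides of 1 as the criterion, 17 pairs moved in opposite directions, adding Vegfa in 5 classes and Slc2a1 in macrophages and NK cells. For Slc2a1 in macrophages this did not hold within Arg1-high cells, or within cells at or above the median in immediate early RNA, where its ratios of 0.955 and 0.876 lay below 1. For Car9 and P4ha1 there was no such pair. Among the Hilpda pairs, the ratio in conventional dendritic cells was 0.544 with each cell thinned to 1000 UMIs. In plasmacytoid dendritic cells macrophage RNA could bring 15.5 of 20.7 CPM in mock and 42.9 of 54.9 CPM in PTIR1 cells. How often all genes moved in opposite directions was not computed for either criterion, so neither count has a background share beside it.

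The log2 ratio of Hilpda was -0.70 in tumour cells and 0.89 in macrophages, a difference of 1.59 (1.44 to 1.74). Against NK cells the difference was 2.06 (1.86 to 2.26) and against T cells 1.56 (1.32 to 1.79). For Vegfa the difference between macrophages and tumour cells was 0.97 (0.84 to 1.10). For Ankrd37 that between NK cells and tumour cells was 3.21 (2.66 to 3.76). Its ratio in NK cells was 1.0 with each cell weighed the same. In 45 of 55 pairs the interval of the difference lay above 0, so that the tumour cells' ratio was usually the lower of the pair, also where both were below 1. All of these pairs share the same tumour cells, and the share among all genes was not computed here either. With each cell weighed the same, 1 pair was past 1.5-fold in both directions, and the tumour ratio of Hilpda was then 0.723.

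**Figure D4:**
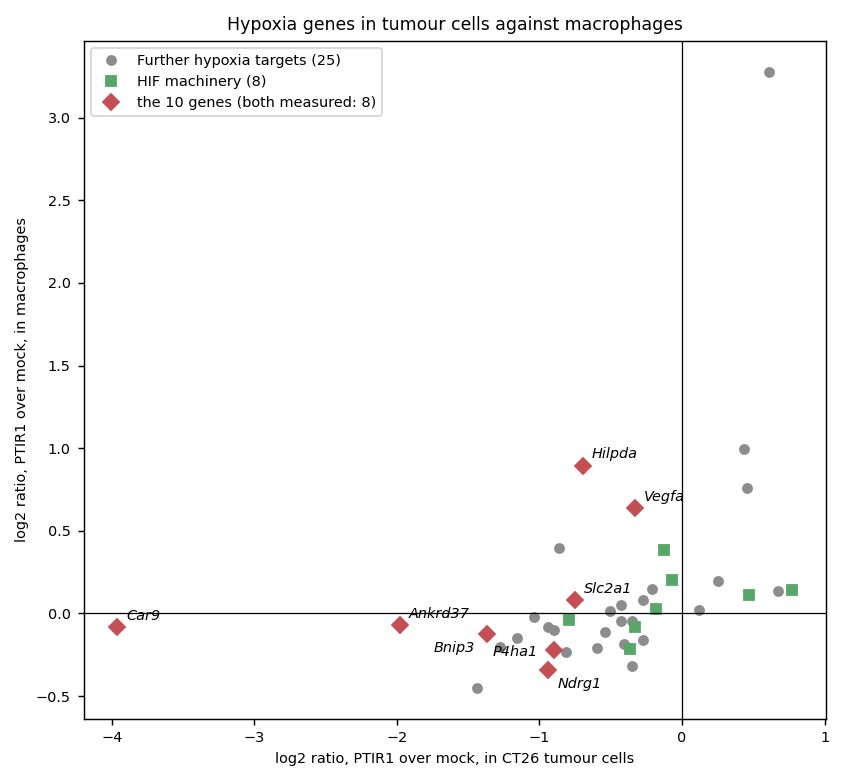
Log2 ratio, PTIR1 over mock library, in tumour cells (x axis) against macrophages (y axis) for the 8 members measured in both (red diamonds), further hypoxia targets (grey) and genes of the HIF machinery (green squares). Hilpda and Vegfa lie in the upper left quadrant, lower in tumour cells and higher in macrophages, and Car9 lies far to the left near 0 on the y axis.

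Among the 8 measured genes of the HIF machinery in tumour cells, 1 was at least 1.5-fold lower and 1 higher, beside 7.10% and 5.65% of all measured genes, with a median log2 ratio of -0.15 that turned to 0.05 with each cell weighed the same. Egln1, the main oxygen-sensing hydroxylase and itself HIF-induced, stood at 132 and 76.4 CPM, a ratio of 0.578 (0.536 to 0.624). Cited2, a HIF-induced competitor for the HIF co-activators, stood at 106 and 182 CPM, a ratio of 1.71 (1.61 to 1.82). Hif1a, the oxygen-regulated alpha subunit, had a ratio of 0.916 (0.823 to 1.02) and its partner Arnt one of 1.38 (1.16 to 1.65). Vhl, which marks the alpha subunits for destruction, Cul2 of the same ligase, the hydroxylase Egln2 and the asparaginyl hydroxylase Hif1an had ratios of 0.777, 0.794, 0.882 and 0.951. Epas1, which encodes HIF-2 alpha, gave 0 and 1 UMI.

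In macrophages 9 genes of this list were measured, and 1 was at least 1.5-fold higher and none lower, beside 5.24% and 3.13% of all measured genes. That gene was Epas1, at 45 and 50 UMIs (1.17 and 1.98 CPM), a ratio of 1.69 (1.11 to 2.59). Hif1a stood at 317 and 413 CPM, a ratio of 1.30 (1.27 to 1.34). Cited2 had a ratio of 1.10 (1.06 to 1.15) and Vhl one of 0.863 (0.752 to 0.99). Egln1, Egln2, Arnt, Hif1an and Cul2 had ratios between 0.945 and 1.15 with intervals that included 1.

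Of 35 further hypoxia targets 25 were measured in tumour cells. 9 of the 25 were at least 1.5-fold lower and 2 higher, beside 7.10% and 5.65% of all measured genes. The median log2 ratio was -0.43, beside -0.06 over all genes. The glycolytic enzyme Pgk1 stood at 1220 and 505 CPM, a ratio of 0.414 (0.402 to 0.426). P4ha2, a second collagen prolyl hydroxylase subunit, had a ratio of 0.370, Slc16a3, the lactate exporter, 0.448, Higd1a, a mitochondrial inner membrane protein, 0.487, and Ero1l, an oxidase of the endoplasmic reticulum, 0.522. In the other direction stood Pfkfb4 with 1.59 (1.0 to 2.53), and Bhlhe40, Ddit4 and Plin2 with 1.37, 1.35 and 1.19. All 11 glycolysis genes had ratios below 1 in tumour cells, 2 of them past the fold, where 7.10% of all measured genes were. The share of all genes with a ratio below 1 was not computed.

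In macrophages 1 of 31 further targets was at least 1.5-fold lower and 4 were higher, beside 3.13% and 5.24% of all measured genes. The median log2 ratio of these targets was -0.05, beside -0.02 over all genes. The stress-induced inhibitor of mTOR signalling Ddit4 had a ratio of 1.99, the transcription factor Bhlhe40 1.69 and Rora 1.56, and the lipid droplet coat protein Plin2 1.15. Ak4 had a ratio of 0.634 (0.508 to 0.786), and Narf, Fam162a, Mif and Pgk1 ratios between 0.802 and 0.869. The ratios of 11 glycolysis genes lay between 0.678 and 1.0 here, none past 1.5-fold, and the intervals of 5 of them included 1. Their median log2 ratio was -0.10 in macrophages and -0.45 in tumour cells, beside -0.02 and -0.06 over all genes.

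Across the 18 units of 9 classes in 2 libraries, the summed level of the members was followed most closely by Slc16a3 (Pearson r of 0.97 on log2(CPM + 1)), Card19 (0.97), Plin2 (0.96), the hexokinase Hk2 (0.95) and the spermine oxidase Smox (0.94), out of 9398 genes with at least 500 UMIs in each library. Slc16a3, Plin2 and Hk2 also stand in the list of further targets. Among the members, Slc2a1 (0.97), Bnip3 (0.95) and Hilpda (0.92), which are part of the sum, were closest to it, and Car9 (0.07) and Adm (0.44) farthest. The units of 1 library share its preparation, and these values are descriptions.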

How the data were processed

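Single-cell RNA libraries were made with 10x 3' v3.1 chemistry, per the labels' protocols, 1 from mock and 1 from PTIR1-expressing CT26 tumours. The deposited values are counts of UMIs per gene and barcode. The submitters' processing notes name Cell Ranger 5.0.0, Seurat 3.2.3 and mm10, with no roles; the annotation version is not given in the sources used here. The deposited counts summed to 95166611 in 10833 mock and 98540561 in 9006 PTIR1 barcodes.

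Kept cells (at least 200 genes, at most 10% mitochondrial UMIs) were scored for marker lists as the sum of log UMIs per 10000 relative to the 50th-highest cell. A class needed a score of 0.3, a next class at or under 0.6 of it, and 3 detected markers. Of the cells left without a class, 3810 were mixed, 2931 fell below the score and 539 had too few markers; 770 classed cells lay within 0.05 of the score. Doublets were left in and removed only as an alternative. An endothelial list was dropped because no population carried it. UMIs were summed per class and library and divided by the class total (CPM). Exact Poisson, binomial and conditional binomial 95% intervals were taken with scipy 1.17.1. On simulated Poisson counts, ratio intervals covered the true value in 95.0% to 97.0% of 200 changed genes in tumour cells, macrophages and NK cells. The intervals themselves assume Poisson counts, so this checks the calculation only. It does not give the coverage in these data, where many UMIs can come from few cells. Genes with at least 50 UMIs over both libraries counted as measured. PCR copies are collapsed by UMIs, and intervals cover counting error only. RNA from macrophages was bounded by C1qa, C1qb, C1qc, Mrc1 and Ms4a7.

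The members and all gene lists were chosen with earlier results of these data known. Named were all 10 members, every measured gene of the HIF machinery, the 5 further targets in each direction whose interval ended farthest from 1, and the 5 genes closest to the summed members. 1 of the further targets this rule picked is not reported here by name or value. The subtraction of macrophage RNA, the restriction to tumour cells of at least 20000 UMIs and the division by immediate early RNA were added after seeing the data. Promoter windows were RefSeq's. Alternatives covered filters, gates, doublets, depth, scaling and cell weights.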

Additional observations from a re-analysis of the deposited data

How the results depend on the processing

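No paired analysis was possible because each group has 1 library. Leaving out a replicate was not possible for the same reason. Of 854 ratios over 68 results of a member in a class, 749 stayed within the main interval and 105 left it, 17 of these on the other side of 1. 4 of the 17 were past 1.5-fold there: Hilpda in conventional dendritic cells (below), Ankrd37 in B cells (1.72) and T cells (1.79) with thinning to 1000 UMIs, and Vegfa in T cells (0.463) with a stricter gate. 2 of the 17 were past the fold in the main analysis: Ndrg1 in neutrophils to 1.28 without the deepest 5% of cells, and Hilpda in conventional dendritic cells to 0.544 with each cell thinned to 1000 UMIs. Of 7 members at least 1.5-fold lower in tumour cells, 3 were so with each cell thinned to 1000 UMIs, where fewer members were measured, and 3 were past 2-fold. Of 2 members higher in macrophages, 1 was so with a stricter gate, 1 with thinning, 1 with each cell weighed the same, and 0 were past 2-fold. Of 10 pairs in opposite directions, 5 were so with thinning, 1 with each cell weighed the same and 1 past 2-fold. Both libraries are deep, but classes of few cells and members under 50 UMIs limit what could be compared, and 1 library a group leaves the spread between animals unmeasured.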
